A study of Rattus norvegicus with 6 samples.

Results

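Retsat encodes retinol saturase, an enzyme of the endoplasmic reticulum that reduces vitamin A alcohol to dihydroretinol. It is described here with 8 other genes of retinoid handling, Rbp4, Stra6, Crabp1, Crabp2, Aldh1a1, Aldh1a2, Rara and Rarb, in whole hearts of rats. The 9 genes were found by their symbol in the annotation of the array and matched 9 of 23188 tested rows, 1 row each, so the rule of taking the row with the highest mean over the 6 arrays had no choice to make. Retsat was chosen by its measured difference between hearts released from TAC and hearts under TAC, and the other 8 for their roles in the same pathway, with earlier results of these data known. Values of Retsat are therefore given as a description, without a test.

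The samples were 6 single-colour Clariom S Rat arrays, 2 in each of 3 groups. TAC-R hearts had been released from TAC. TAC hearts carried a silk ligature around the transverse aorta, tied over a blunt needle, which narrows the outflow of the left ventricle. Normal hearts are labelled healthy. The surgical protocol describes control rats operated on without ligation, and no label ties the normal arrays to those rats or to unoperated ones. All animals were male Sprague-Dawley rats, given as 10 weeks old, and the labels name no transgene and no drug other than the anaesthetic. They state neither how long TAC lasted nor how long after its release hearts were taken. They also do not state that arrays of a group came from separate animals, so p-values measure only the spread between arrays, which may be technical. The extraction text of the labels names cultured fibroblasts, although all other fields name whole heart. Of 10 cardiomyocyte markers measured, 10 lay above the negative controls and 5 were at the upper limit of the scale on all 6 arrays.

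Retinoids are vitamin A and its derivatives. Retinol travels in blood bound to RBP4, enters cells through membrane receptors such as STRA6, and is stored as retinyl esters or oxidised to retinal and then, by the ALDH1A enzymes, to retinoic acid. Retinoic acid binds the nuclear receptors RARA, RARB and RARG, which pair with RXR receptors on DNA. In the embryonic heart this signal patterns the atria and the epicardium. Retinol saturase takes retinol out of this route, and in mouse adipocytes its gene is a target of the nuclear receptor PPAR gamma.

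The promoter sequences of Retsat and Aldh1a1 are shown because these were the 2 members whose TAC-R arrays stood farthest from the other arrays. They are taken from RefSeq on build GRCr8, which gives 1 start per gene, and read 5′ to 3′ over the 250 bases before it. The Retsat stretch is chr4:106211209-106211458 on the plus strand, and that of Aldh1a1 is chr1:227537370-227537619 on the plus strand. Capitals mark the half-site AGGTCA, the core element of RAR, RXR and PPAR binding sites, searched on both strands.
Retsat: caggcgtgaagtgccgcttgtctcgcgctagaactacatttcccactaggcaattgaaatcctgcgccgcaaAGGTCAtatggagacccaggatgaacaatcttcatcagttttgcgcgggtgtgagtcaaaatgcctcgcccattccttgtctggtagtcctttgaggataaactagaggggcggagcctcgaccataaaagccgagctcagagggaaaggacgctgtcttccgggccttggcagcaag
Aldh1a1: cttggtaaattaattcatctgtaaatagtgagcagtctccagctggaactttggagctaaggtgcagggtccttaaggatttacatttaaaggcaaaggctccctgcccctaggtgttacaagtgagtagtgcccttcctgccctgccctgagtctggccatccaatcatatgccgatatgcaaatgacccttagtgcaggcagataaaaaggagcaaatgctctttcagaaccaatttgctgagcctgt
The half-site occurred in the 300-base window (250 bases before to 50 after the start) of 1 of the 9 members, Retsat, against 16.2% of 33469 rat promoter windows. Rarb, itself a textbook target of retinoic acid, has a direct repeat in its window, and it is shown because it is the kind of element through which the receptors act. The repeat was searched as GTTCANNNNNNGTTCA on both strands, and 0.418% of all windows held it. In the 28 bases at chr15:11336411-11336438 (GRCr8, plus strand, 20 to 47 bases after the RefSeq start) capitals mark the match.
Rarb: ggaaggGTTCACCGAAAGTTCActcgca
A match describes these letters and is not evidence of binding in these hearts.

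Signals are the deposited log2 values. Each array's 95th percentile of 1153 negative control rows, from 8.09 to 8.55, served as background limit. Retsat, Aldh1a1 and Rarb were above it on all 6 arrays, Rara on 3 arrays, and the other 5 members on 0 arrays. For those 5 the size of a difference is not measured, and their values are given only for completeness. Genes of the lists were counted as above the limit when their mean over 6 arrays passed 8.18, the same percentile of the negative control row means. Levels of different genes are not compared, because the probes of different rows bind with different strength.

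**Figure D1:**
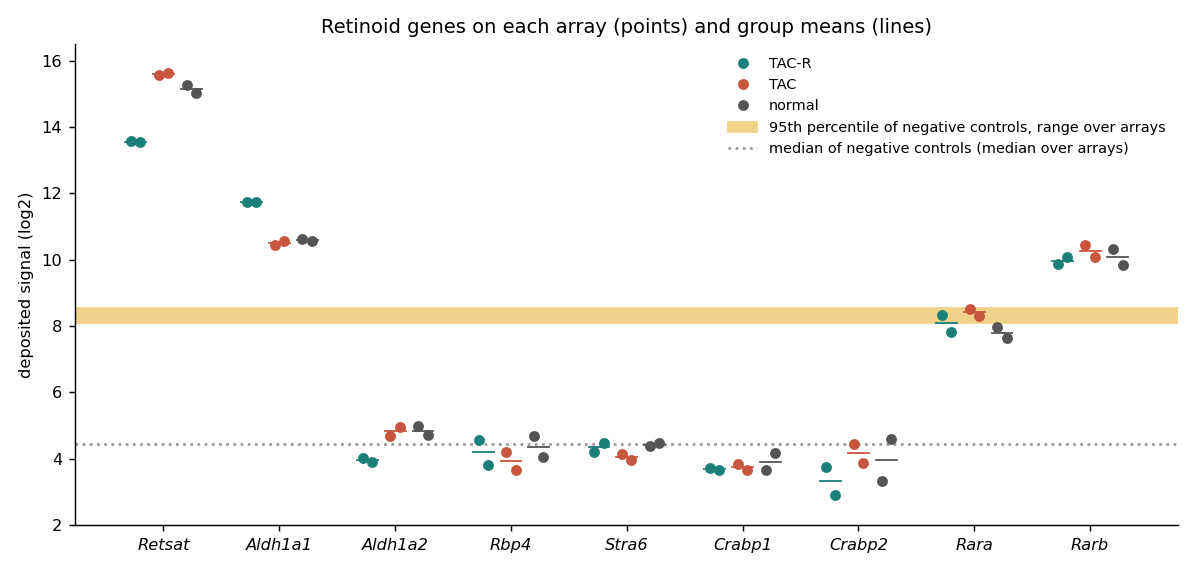
Deposited log2 signal of the 9 retinoid genes on each array, with TAC-R, TAC and normal hearts from left to right within each gene. Points are arrays, short lines are group means, the band spans the background limits of the 6 arrays, and the dotted line is the median of the negative controls. Retsat lay at 13.54 and 13.57 on the TAC-R arrays, below all other arrays, and Aldh1a1 at 11.72 and 11.73, above all other arrays.

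Retsat was lowest in hearts released from TAC. Its signal was 13.57 and 13.54 on the TAC-R arrays, 15.57 and 15.61 on the TAC arrays, and 15.25 and 15.02 on the normal arrays. The 3 groups did not overlap. The TAC-R mean was 13.56 ± 0.02 against 15.59 ± 0.03 in TAC hearts (SD, n = 2 each), a difference of -2.03 log2 units or 4.09-fold, which is the value that chose the gene. Only 11 of the 23188 tested rows had a more negative difference, and 4 of those 11 were among the 6207 rows with a mean above the background limit. Against the normal mean of 15.13 ± 0.16 the TAC-R mean was 1.58 log2 units lower, 2.98-fold, with 16 rows further down. TAC hearts stood 0.46 log2 units above normal hearts, with 2251 rows further up. The order of the levels was thus TAC, normal and TAC-R, and the step between the first pair was small beside the step down to TAC-R. In whole-heart RNA, fewer cells of a type and less RNA per cell cannot be told apart.

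Aldh1a1, which oxidises retinal to retinoic acid, stood in the opposite direction. Its signal was 11.72 and 11.73 on the TAC-R arrays, 10.44 and 10.57 on the TAC arrays, and 10.62 and 10.55 on the normal arrays. The TAC-R arrays lay above the other 4 arrays, and the TAC and normal arrays overlapped. TAC-R exceeded TAC by 1.23 ± 0.21 log2 units (SE), 2.34-fold, which just missed the threshold of 0.05 in limma's test over all rows (adjusted p = 0.0515), and 101 rows had a larger positive difference. The call depended on the setting: it was made in 6 of 16 alternatives, with adjusted p between 0.00286 and 0.304, and in none of the 6 fits that left out an array (0.123 to 0.304). The difference itself was 1.16 to 1.29 in the 6 alternatives that can alter it. Against normal hearts TAC-R was 1.14 ± 0.21 log2 units higher, 2.21-fold (adjusted p = 0.122, and 0.00996 to 0.597 over 16 alternatives, of which 3 made the call). TAC and normal hearts differed by -0.08 ± 0.21 (adjusted p = 0.921).

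**Figure D2:**
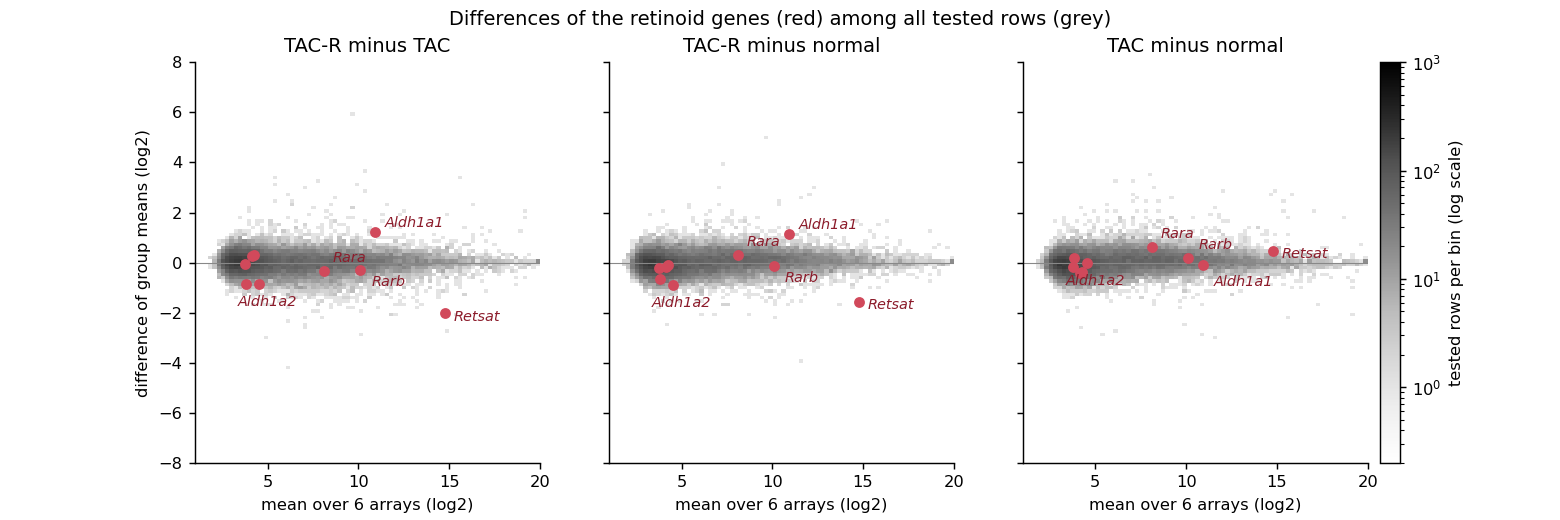
Difference of group means (vertical, log2) against the mean over 6 arrays (horizontal, log2) in the 3 comparisons, with all 23188 tested rows as grey density and the 9 retinoid genes in red. In the TAC-R minus TAC panel Retsat, at -2.03, and Aldh1a1, at 1.23, are the outermost of the 9, with the other members between them. Among all tested rows 11 lie below Retsat and 101 above Aldh1a1 there.

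Aldh1a2, the enzyme that makes most retinoic acid in the embryo, had background signals. It read 4.02 and 3.89 on the TAC-R arrays, 4.69 and 4.96 on the TAC arrays, and 4.98 and 4.70 on the normal arrays. The TAC-R arrays were below the other 4, in a range where sizes are not measured (adjusted p = 0.19 against TAC and 0.264 against normal). The markers of the epicardium, where this enzyme is made in development, were mostly in the background as well: of 8 measured, 1 had a mean above the limit, and Upk1b, Msln, Krt8, Krt18 and Krt19 never passed the median of the negative controls. The mean log2 signal of that list was 4.67 and 4.53 on the TAC-R arrays, 5.02 and 5.00 on the TAC arrays, and 4.60 and 4.70 on the normal arrays. The marker above the limit, Gpm6a, a neuronal and mesothelial membrane protein, read 8.91 and 8.80 on the TAC-R arrays, 10.00 and 9.18 on the TAC arrays, and 7.64 and 8.10 on the normal arrays. It passed the limit on 4 of 6 arrays, both normal arrays being below theirs. Limma did not call it (adjusted p = 0.425 for TAC-R against TAC, 0.333 for TAC-R against normal and 0.0936 for TAC against normal). Limma called 1 of the 8 lower for TAC-R against TAC (0.207% of all rows), Tbx18, a transcription factor of the epicardium and of mural cells. It fell to 5.02 and 4.88 in TAC-R hearts, against 6.73 and 6.66 in TAC hearts and 6.57 and 6.28 in normal hearts. All of these values were below the limit (adjusted p = 0.0157 for TAC-R against TAC and 0.0756 for TAC-R against normal). That call was lost when either TAC-R array was left out (adjusted p = 0.0849 and 0.154) or either TAC array (0.169 and 0.146).

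The carriers and the uptake receptor were not detected above the limit. Rbp4, the blood carrier made mainly by liver and fat, read 4.57 and 3.82 on the TAC-R arrays, 4.20 and 3.65 on the TAC arrays, and 4.67 and 4.03 on the normal arrays. Stra6, the membrane receptor for the carrier, read 4.21 and 4.47, 4.13 and 3.96, and 4.37 and 4.48 on the TAC-R, TAC and normal arrays. Crabp1, a cytosolic carrier linked to the breakdown of retinoic acid, read 3.71 and 3.65, 3.85 and 3.65, and 3.66 and 4.16 in the same order. Crabp2, which hands retinoic acid to its receptors, read 3.75 and 2.89, 4.44 and 3.87, and 3.33 and 4.58. For TAC-R against TAC the groups overlapped for Rbp4 and Crabp1 and did not for Stra6 (higher in TAC-R) and Crabp2 (lower in TAC-R). Of all rows, 40.5% did not overlap in that comparison, and no direction is claimed for these background signals. None of these 4 genes was called in a comparison by limma, with adjusted p from 0.543 to 0.948 for TAC-R against TAC. A signal at this level is not evidence that a transcript is absent.

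Rara, the receptor expressed in most tissues, lay at the limit. It read 8.34 and 7.83 on the TAC-R arrays, 8.51 and 8.30 on the TAC arrays, and 7.97 and 7.62 on the normal arrays. Both TAC arrays were above both normal arrays, by 0.61 ± 0.26 log2 units (adjusted p = 0.468), and the TAC-R arrays overlapped both other groups. Rarb was measured on all arrays, with 9.85 and 10.08 in TAC-R hearts, 10.44 and 10.09 in TAC hearts, and 10.33 and 9.84 in normal hearts. Its differences of -0.30 ± 0.25 for TAC-R against TAC, -0.12 ± 0.25 for TAC-R against normal and 0.18 ± 0.25 for TAC against normal were smaller than the gap between the 2 TAC arrays or the 2 normal arrays (adjusted p = 0.73, 0.903 and 0.85).

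In all, limma called 0 of the 8 tested members in any comparison. For TAC-R against TAC, 0.431% of all rows were called (0.224% higher and 0.207% lower), and 2 of the 8 members, Aldh1a1 and Aldh1a2, had an unadjusted p under 0.05, as had 11% of all rows. Of all rows, 0.0906% were called for TAC-R against normal (0.0604% higher and 0.0302% lower), where the same 2 members and 10.7% of all rows had an unadjusted p under 0.05. The share was 0.254% for TAC against normal (0.19% higher and 0.0647% lower), where this held for Rara among the 8 members and for 10.3% of all rows. With an unadjusted p under 0.05 and a 2-fold minimum, 1 of the 8 members, Aldh1a1, passed for TAC-R against TAC (1.97% of all rows) and for TAC-R against normal (1.43%), and 0 passed for TAC against normal (1.52%). Leaving out Retsat, which was chosen for standing apart, the groups did not overlap for 5 of 8 members in TAC-R against TAC (40.5% of all rows), 3 of these 5 being Aldh1a2, Crabp2 and Stra6 in the background. They did not overlap for 2 of 8 in TAC-R against normal (40.9%) and 2 of 8 in TAC against normal (43.3%). The median difference of these 8, of which 5 lie in the background where sizes are not measured, was -0.18 for TAC-R against TAC, -0.14 for TAC-R against normal and -0.05 for TAC against normal. Over all rows the medians were 0.0045, 0.0040 and 0.0017 in the same order of comparisons. The 3 comparisons share arrays and are not independent of each other.

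The wider pathway was read from a list of 60 further genes, of which 44 had a row and 16 a mean above the background limit. For TAC-R against TAC, limma called 0 higher and 1 lower, beside 0.224% and 0.207% of all rows. An unadjusted p under 0.05 was reached by 6 of the 44 (11% of all rows). Limma called 0 in the other comparisons, where 6 of 44 for TAC-R against normal (10.7% of all rows) and 8 of 44 for TAC against normal (10.3% of all rows) had an unadjusted p under 0.05. The medians over the 44 were -0.06 for TAC-R against TAC, 0.01 for TAC-R against normal and 0.13 for TAC against normal, beside 0.0045, 0.0040 and 0.0017 over all rows.

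The gene that fell was Lipe, hormone-sensitive lipase, which splits triglycerides and also retinyl esters. It read 8.31 and 8.20 on the TAC-R arrays, 9.55 and 9.49 on the TAC arrays, and 8.78 and 8.66 on the normal arrays. All 6 arrays were above their background limits. The TAC-R arrays lay close to theirs (8.17 and 8.09), and so did the normal arrays (8.45 and 8.55). The size of its differences is therefore less certain. The 3 groups did not overlap and took the same order as those of Retsat. The difference was -1.26 ± 0.21 log2 units for TAC-R against TAC (adjusted p = 0.0476), -0.46 for TAC-R against normal (0.471) and 0.80 for TAC against normal (0.262). The call was lost in 9 of 16 alternatives, among them each of the 6 fits that left out an array (0.116 to 0.276). Of the other 3 measured genes that store or release retinyl esters, Lpl, lipoprotein lipase, differed by 0.01 and Dgat1, an acyltransferase, by -0.35 in the same comparison (adjusted p = 0.991 and 0.607). Lrat, the main retinol acyltransferase, was below the limit on all 6 arrays.

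**Figure D3:**
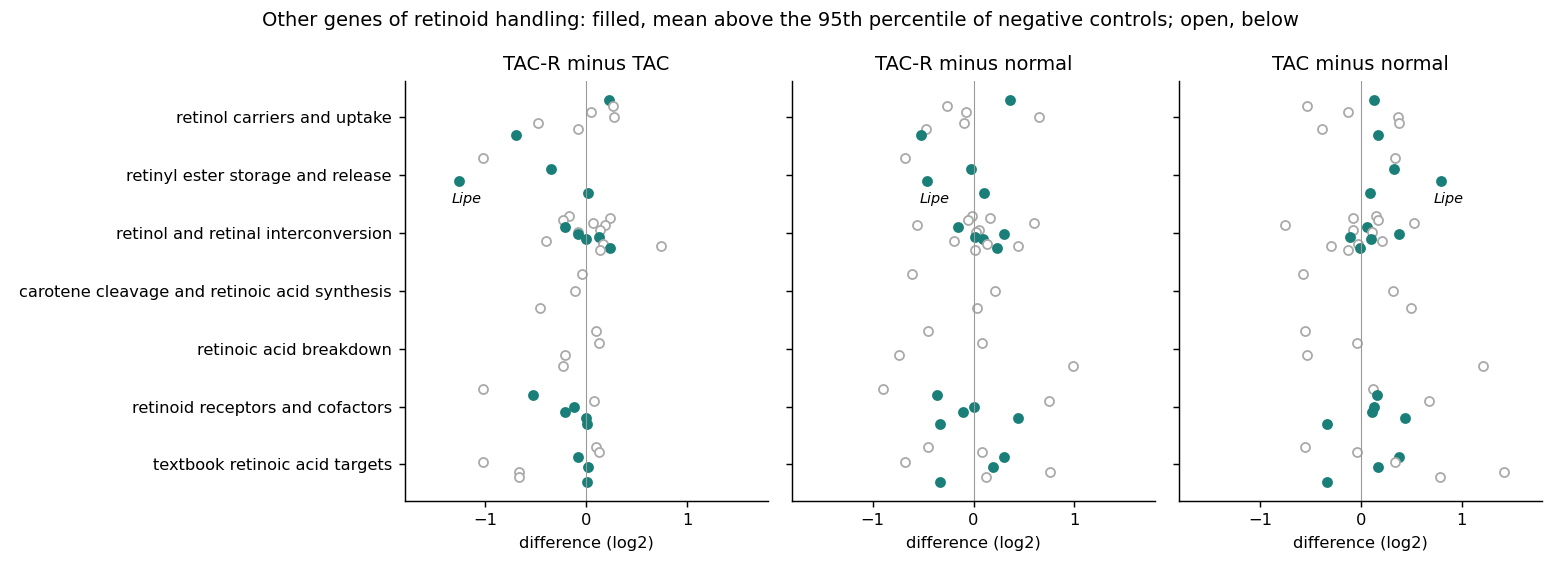
Differences (horizontal, log2) of the other retinoid genes by role, filled where the mean over 6 arrays lies above the 95th percentile of the negative controls and open where it does not. Genes on 2 lists are drawn on both, and the 9 members are not drawn. Lipe lies farthest to the left for TAC-R minus TAC, at -1.26, and most of the filled points lie near 0.

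Enzymes that interconvert retinol and retinal were measured by 16 rows, 5 above the limit, and 0 were called. Dhrs3, a retinal reductase, differed by -0.08 for TAC-R against TAC and by 0.38 for TAC against normal (adjusted p = 0.957 and 0.702). Rdh13 and Adh5 differed by -0.22 and 0.23 for TAC-R against TAC (adjusted p = 0.83 and 0.769). Of 7 carriers 2 had a mean above the limit, each passing it on 4 of 6 arrays. They were the fatty acid and retinoic acid carrier Fabp5 with -0.69 and the plasma partner of RBP4, Ttr, with 0.22 for TAC-R against TAC (adjusted p = 0.404 and 0.794). None of 3 further rows for carotene cleavage or retinoic acid synthesis and none of 4 for its breakdown had a mean above the limit, Cyp26a1 and Cyp26b1 among them.

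Of 7 further receptor and cofactor genes 5 were above the limit and 0 were called. Rxra, a partner of the retinoic acid receptors, read 10.95 and 10.37 on the TAC-R arrays, 11.45 and 10.93 on the TAC arrays, and 11.00 and 11.05 on the normal arrays. Its TAC-R and TAC arrays overlapped, with a difference of -0.53 (adjusted p = 0.54). The coactivator Ncoa2 and the corepressor Nrip1 differed by -0.01 and 0.01 for TAC-R against TAC (adjusted p = 0.997 and 0.994). Both stood apart from normal hearts without being called. Ncoa2 differed by 0.44 for TAC-R against normal and 0.44 for TAC against normal (adjusted p = 0.546 and 0.548), and Nrip1 by -0.33 and -0.34 (adjusted p = 0.613 in both). Textbook targets of retinoic acid had 11 rows, Rarb, Crabp2 and Stra6 included, of which 4 were above the limit and 0 were called. The median of these targets was -0.08 for TAC-R against TAC, -0.08 for TAC-R against normal and 0.18 for TAC against normal.

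The profiles nearest to that of Retsat were those of Gpr22, Pxdn, Fstl1, Adamts12, Igf1, Aplnr, Fgf1 and Col6a2. Nearness was the root-mean-square distance between row-centred log2 signals over the 6 arrays, among 4577 named rows with a mean above the background limit, and these distances ran from 0.19 for Gpr22 to 0.35 for Col6a2. Gpr22 is an orphan receptor of heart muscle, Pxdn encodes peroxidasin, which crosslinks collagen of basement membranes, and Fstl1 encodes a secreted glycoprotein. Igf1 and Fgf1 encode growth factors, Aplnr the apelin receptor, Adamts12 a secreted metalloprotease and Col6a2 a chain of type VI collagen. The TAC-R minus TAC difference was -1.75 log2 units for Gpr22, -1.58 for Pxdn, -1.68 for Fstl1 and -1.45 for Adamts12. It was -1.56 for Igf1, -1.34 for Aplnr, -1.33 for Fgf1 and -1.66 for Col6a2, so that all 8 differences were smaller than that of Retsat. Without the limit on the mean, 6 of the 8 names remained, and Tbx18 came nearest, at 0.13. Genes picked for likeness to Retsat share its pattern by construction.

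**Figure D4:**
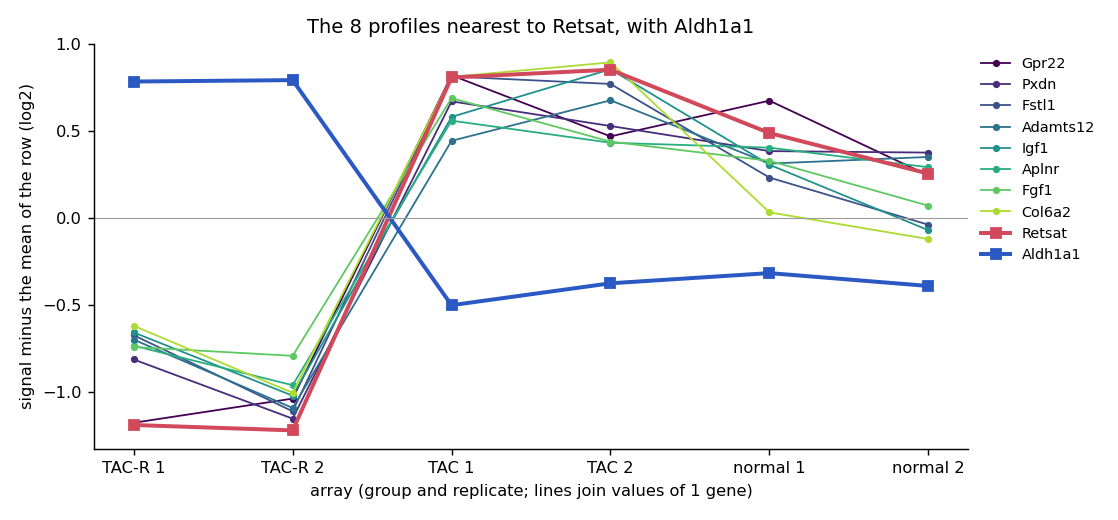
Log2 signal minus the mean of the row on the 6 arrays for Retsat, the 8 nearest named rows and Aldh1a1. The 8 rows and Retsat lie below 0 on the TAC-R arrays, and Aldh1a1 lies above 0 there and below 0 on the TAC and normal arrays.

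Marker lists of several cell types also differed in mean signal between the groups, not all in the order of Retsat. The mean log2 signal of 10 fibroblast markers was 10.33 and 10.04 on the TAC-R arrays, 11.17 and 11.18 on the TAC arrays, and 10.68 and 10.49 on the normal arrays. This list mean took the order of Retsat and Lipe. By group mean Gsn was instead highest in normal hearts and Pi16 in TAC-R hearts. Pdgfra and Mfap5 overlapped between TAC-R and normal hearts. A mean above the background limit was found for 7 of the 10. Limma called 2 of the 10 lower for TAC-R against TAC (0.207% of all rows) and 0 in the other comparisons. The mean of 8 endothelial markers ran from 10.67 to 10.89 in TAC-R hearts, from 11.27 to 11.34 in TAC hearts and from 11.34 to 11.41 in normal hearts, and that of 8 smooth muscle and pericyte markers from 8.45 to 8.92, from 9.40 to 9.54 and from 8.74 to 8.75 in the same order of groups. For 9 macrophage markers it ran from 6.82 to 6.84, from 7.10 to 7.11 and from 6.48 to 6.75, and for 6 red cell markers from 13.36 to 13.52, from 14.85 to 14.94 and from 12.46 to 12.72. The red cell and macrophage means were highest in TAC hearts and lowest in normal hearts, with TAC-R hearts between. Of the 9 macrophage markers 2 had a mean above the background limit. Cd68, Cd14, Csf1r, Mrc1 and C1qb took that order of group means. Adgre1 and Cd163 were instead highest in TAC-R hearts, and C1qa and C1qc lowest there. Limma called 0 endothelial and 0 macrophage markers in any comparison. The 1 smooth muscle marker called was Cnn1, higher for TAC against normal (0.19% of all rows). Cnn1 was below the background limit on all 6 arrays, where sizes are not measured. Of the 6 red cell markers limma called 3 lower for TAC-R against TAC (0.207% of all rows). It called 1 of them higher for TAC-R against normal (0.0604%) and 5 higher for TAC against normal (0.19%). The part of these cell types in the results was not tested.

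Adipocytes, which express Retsat and Lipe in mice, were read from 10 marker rows, and limma called 0 of them in any comparison. Their mean was 5.76 to 5.82 in TAC-R hearts, 5.57 to 5.68 in TAC hearts and 5.81 to 5.96 in normal hearts, lowest in TAC hearts, and the median difference of the 10 was 0.23 for TAC-R against TAC. Cidec, Lep, Retn, Pck1 and Acvr1c never passed the median of the negative controls, and 2 of the 10, Cidea and Fabp4, had a mean above the limit. Most rows behind the list mean and the median thus lie where sizes are not measured. By group mean neither Cidea nor Fabp4 was lowest in TAC hearts. Fabp4, a fatty acid carrier that endothelial cells also express, read 13.71 and 13.80 in TAC-R hearts, 14.38 and 14.69 in TAC hearts, and 14.94 and 14.60 in normal hearts. Cidea, a lipid droplet protein, read 13.62 and 13.32 in TAC-R hearts, 13.37 and 13.64 in TAC hearts, and 13.33 and 13.28 in normal hearts. Over 8 atrial markers the mean was 9.47 and 8.21 on the TAC-R arrays, 7.11 on both TAC arrays, and 7.36 and 7.49 on the normal arrays, and Myl7, the atrial light chain, read 14.30 and 12.54 on the TAC-R arrays, 7.48 and 7.51 on the TAC arrays, and 8.40 and 8.43 on the normal arrays. Myl7 was called higher for TAC-R against TAC (adjusted p = 0.00315; 0.0501 without TAC replicate 2). It was the 1 marker of the 8 called in that comparison, where 0.224% of all rows were called higher. Nppa, Myl4 and Sln differed by 3.71, 3.39 and 1.40 and were not called (adjusted p = 0.0527, 0.126 and 0.385), and Stard10, Bmp10, Tbx5 and Dkk3 differed by 0.10, 0.09, -0.18 and -0.63. Of the 8 atrial markers 4 had a mean above the limit. Myl7 and Stard10 passed it on 2 arrays each, Myl4 on 1, and Sln and Bmp10 on 0. Sizes of the differences of these genes are not measured. The TAC-R arrays differed from each other by 1.26 in the atrial mean, by 0.03 in Retsat and by 0.0081 in Aldh1a1. The part of atrial tissue or of adipocytes in the results was not tested. Arrays of the same group correlated at 0.991 to 0.993 across rows, and arrays of different groups at 0.988 to 0.991.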

How the data were processed

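RNA of 6 whole-heart samples was measured on Clariom S Rat arrays. The deposited log2 values were made by the authors with robust multi-array averaging in Expression Console at core-exon level, per the labels, with software version and probe build not given in the sources used here. This averaging makes arrays alike, so a shift of all genes would not show. No further scaling was done. Of 24834 rows, 1646 controls were left out and 23188 were tested. An array annotation gave 1 symbol to 15049 of them, several to 0 and none to 8139.

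Differences were fitted with limma 3.58.1 in R 4.3.3 over all 6 arrays, with 1 mean per group, 3 residual degrees of freedom and no covariate. Moderation used 5.71 prior degrees of freedom. Calls needed p under 0.05 after Benjamini-Hochberg adjustment across the tested rows. An exact permutation of 2 against 2 arrays was not used, since it cannot reach that threshold. The number of arrays limits the precision.

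The members, the pathway and marker lists and the alternatives were chosen with earlier results of these data known. Named genes were the 9 members, per pathway list those called or up to 3 with the largest difference and a mean above the 95th percentile of the negative controls, and the 8 rows nearest to Retsat. Lrat, Tbx18, Gpm6a, Cyp26a1, Cyp26b1 and the marker genes, and the pathway genes of the closing section, were named after their values were seen, as were Lpl and Dgat1 beside Lipe. Alternatives were other moderation, scaling, row filters, control rows, the 2 groups alone, a replicate block, each array left out and another call rule. Promoter sequences come from RefSeq (GRCr8).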

Additional observations from a re-analysis of the deposited data

How the results depend on the processing

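Of 16 alternatives, 6 can alter a difference of group means (centring, quantile normalization and each left-out array of the 2 groups), and in these Retsat ran from -2.08 to -2.01 for TAC-R against TAC, -1.69 to -1.46 for TAC-R against normal and 0.34 to 0.57 for TAC against normal. For the 8 tested members limma's count of 0 became 1, always Aldh1a1. For TAC-R against TAC this was so with an intensity trend, robust moderation, arrays centred on their median, rows at the ceiling left out, rows below the median of means or below the control percentile left out, and the rule of a 2-fold minimum at an unadjusted p under 0.05. For TAC-R against normal it was so with the trend, both filters on dim rows and the unadjusted rule. The filters test fewer rows; for the other settings the cause was not tested.

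The counts over all rows moved more. For TAC-R against TAC, 100 in the fit as reported, they were 344 with a trend, 44 with control rows, 37 with only 2 groups, 187 and 197 with rows below the median or the percentile left out, and 456 by the unadjusted rule. For TAC against normal, 59 as reported, they were 170 with a trend, 39 with control rows, 35 with only 2 groups and 353 by the unadjusted rule. For TAC-R against normal, 21 as reported, they were 156 with a trend, 10 with control rows, 12 with only 2 groups, 54 with centred arrays, 37 without rows at the ceiling, 68 and 52 with the dim-row filters, and 331 by the unadjusted rule. With an array left out the count was 4 to 37 for TAC-R against TAC, 0 to 35 for TAC against normal (0 without TAC replicate 2, with 2025 rows at an unadjusted p under 0.05) and 0 to 12 for TAC-R against normal (0 without normal replicate 2, with 1630).

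A replicate block gave 47, 36 and 11 calls for TAC-R against TAC, TAC against normal and TAC-R against normal, 0 members, and no call for Lipe (adjusted p = 0.0955). Arrays with the same number did not deviate together across rows (r = 0.01 for TAC and normal, -0.01 for TAC-R and either). The sample titles do not say whether equal numbers mark a pairing, and these correlations cannot exclude one.

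Signs turned among uncalled differences of Rarb and of members in the background, for which no direction is claimed. For TAC against normal, Aldh1a2 was 0.0054 with centred arrays and 0.0429 with quantile normalization, and leaving out arrays gave -0.16 to 0.12 for Aldh1a2, -0.41 to 0.0944 for Crabp1, -0.43 to 0.82 for Crabp2 and -0.0665 to 0.42 for Rarb. For TAC-R against normal, Stra6 was 0.0066 with quantile normalization, and leaving out arrays gave -0.21 to 0.0525 for Stra6, -0.48 to 0.0230 for Crabp1, -0.36 to 0.12 for Rarb and -0.54 to 0.22 for Rbp4. For TAC-R against TAC it gave -0.17 to 0.0252 for Crabp1 and -0.11 to 0.64 for Rbp4. Each member had 1 row, so a mean over rows could not be tried.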

Other observations

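Of the 44 further retinoid rows, 28 had no mean above the background limit. Among these 28 the groups did not overlap for 9 in TAC-R against TAC (2 higher and 7 lower), 18 in TAC-R against normal (8 higher and 10 lower) and 13 in TAC against normal (7 higher and 6 lower), beside 40.5%, 40.9% and 43.3% of all rows. Cyp1b1, an enzyme that can oxidise retinol, read 6.00 and 6.40 on the TAC-R arrays, 6.50 and 6.36 on the TAC arrays, and 5.03 and 5.40 on the normal arrays, and was not called (adjusted p = 0.129 for TAC against normal and 0.254 for TAC-R against normal). Rarg, the third retinoic acid receptor gene, read 5.71 and 5.86 on the TAC-R arrays, 6.84 and 6.77 on the TAC arrays, and 6.37 and 6.99 on the normal arrays (adjusted p = 0.177 for TAC-R against TAC). Lrat read 6.08 and 5.94 on the TAC-R arrays against 6.87 and 7.18 on the TAC arrays, with 6.38 on the lower normal array (adjusted p = 0.192 for TAC-R against TAC). Rxrb, a partner receptor, read 7.12 and 7.07 on the TAC-R arrays, 6.91 and 7.13 on the TAC arrays, and 6.19 and 6.50 on the normal arrays (adjusted p = 0.314 for TAC-R against normal). Rarres1, named for its response to retinoids, read 5.50 and 4.52 on the TAC-R arrays, 6.01 and 5.34 on the TAC arrays, and 4.46 and 4.04 on the normal arrays (adjusted p = 0.506 for TAC-R against normal). These genes were picked after their values were seen, and sizes are not measured at this level.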
